A study of Mus musculus with 12 samples.

Results

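The sites described here are those of the Gata2 locus: all DNase-seq peaks that overlap a window of 120 kb on mouse chromosome 6, from 88050000 to 88170000 on build mm9, with Gata2 itself on the plus strand at about 88.144 to 88.157 Mb. The window was set by position, with earlier results of these data known. The 16 deposited peak lists held 235 such peaks, 183 in the 12 lists of single libraries and 52 in the 4 lists in which the authors pooled the replicates of a group. Merging the peaks of the 12 lists wherever they shared at least 1 bp gave 27 sites in the window, of 265371 in the whole series, and 1 further site, from 88068555 to 88069112, had a peak in the pooled list of asynchronous G1E alone, at rank 99806. In RefSeq on GRCm38.p6 the genes next to Gata2 are Rpn1 before and Dnajb8 after it. Positions along the locus are given as kb from the rounded gene start of 88.144 Mb, with negative values upstream.

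GATA2 is a zinc finger transcription factor of blood stem and progenitor cells. In erythroid maturation GATA1 replaces it at shared GATA motifs of the Gata2 locus and Gata2 transcription falls, an exchange known as the GATA switch. The elements known to control the gene include a far upstream enhancer, a cluster of sites just upstream and an enhancer within an intron, and the gene is transcribed from 2 alternative first exons. DNase I cuts chromatin where it is open, so its cut sites map promoters and enhancers. The peaks measure accessibility and not which factor is bound or whether the gene is transcribed.

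Each of the 4 groups had 3 libraries. G1E is a murine erythroid line derived from strain 129 embryonic stem cells with a disrupted Gata1 gene, and it therefore lacks GATA1. G1E-ER4 is the subline of it in which GATA1 activity is inducible, and every G1E-ER4 library came from cells given 100 nM estradiol for 22 h. From both lines the study took asynchronous cultures and mitotic cells. For the latter, nocodazole was added at 200 ng/ml over the last 7 h and cells carrying the mitotic phosphorylation of histone H3 were collected by sorting. Cells were lightly fixed with formaldehyde and digested at 3 DNase I concentrations before sequencing. The labels describe G1E as Ter119-CD71- and Ter119-CD71+ and G1E-ER4 as Ter119+CD71+, surface proteins that appear as erythroid cells mature. Line, restored GATA1 and estradiol cannot be told apart in this design, and neither can mitosis, nocodazole and the sort. The labels do not say that replicates were separate cultures, so p-values measure the spread between these libraries, which may be technical. Cell identity was not checked against marker genes, since the peak lists carry no gene names.

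Every list held its 100000 strongest peaks, and rank 1 is the strongest. A site without a peak in a list is called absent from it, which means that it did not reach the 100000 and not that it was closed. Read depth is unknown from these files. Replicate lists differed widely in how broad their peaks were. The whole list covered from 45.0 Mb in replicate 2 of asynchronous G1E to 180.9 Mb in replicate 1 of asynchronous G1E-ER4. In each of the 4 groups replicate 1 covered the most. It covered 113.2 Mb in asynchronous and 129.9 Mb in mitotic G1E, and 146.0 Mb in mitotic G1E-ER4. Differences of replicate 1 from the other lists of its group may therefore go with this breadth, which was not tested.

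No annotation or genome of mm9 was used here, so sequence is shown from RefSeq on GRCm38.p6, and positions were not converted between builds. RefSeq gives 2 promoter windows for Gata2, which belong to its alternative starts, 4773 bp apart. They are printed because the strongest sites of the locus lie around and inside the gene. The 250 bases before each start are given 5′ to 3′ on the plus strand, with the motif CCAAT, read on either strand, in capitals.
Gata2 upstream start, chromosome 6 from 88193641 to 88193890: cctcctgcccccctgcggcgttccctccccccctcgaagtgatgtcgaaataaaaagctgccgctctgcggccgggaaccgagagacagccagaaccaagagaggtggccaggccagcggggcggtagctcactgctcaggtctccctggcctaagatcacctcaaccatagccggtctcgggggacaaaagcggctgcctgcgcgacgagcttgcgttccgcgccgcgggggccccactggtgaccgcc
Gata2 downstream start, chromosome 6 from 88198414 to 88198663: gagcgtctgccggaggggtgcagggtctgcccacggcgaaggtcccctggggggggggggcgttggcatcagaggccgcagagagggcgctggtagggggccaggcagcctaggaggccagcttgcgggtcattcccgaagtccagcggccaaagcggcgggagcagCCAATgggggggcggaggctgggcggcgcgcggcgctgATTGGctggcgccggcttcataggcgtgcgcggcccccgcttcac
The GC content was 67.2% before the upstream start and 74.0% before the downstream start, against a median of 52.4% over 32851 promoter windows of the same length. The motif AGATAA, a form of the site that GATA factors bind, was searched on both strands and matched neither window. The related form TGATAA matched neither window either. Among all promoter windows 9.99% held AGATAA and 7.94% TGATAA. The E-box, CANNTG, had no match either and was found in 66.2% of all windows. CCAAT, chosen after the sequences were seen, matched 2 times before the downstream start, beginning 83 and 45 bases ahead of it, and was found in 33.8% of all windows. No match says only that these letters are not in these 250 bases.

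The sites fell into 3 stretches: an upstream cluster around -85 to -58 kb, a sparse middle and a wide domain over the gene. Of the 27 sites, 4 were held by all 12 lists. They were the sites at -80.7 and -77.2 kb, the domain over the gene and a region at the downstream edge of the window. That region runs beyond the window, and not every list had a peak of it inside. A further 8 sites were held by 3 to 10 lists, 2 by 2 lists and 13 by 1 list. The 12 sites of at least 3 lists were tested, and 4 of the 12 were held by all lists, against 15.7% of the 103666 regions of the series with at least 3 lists. The median of the 12 sites' median ranks was 59659, and that of all 103666 regions 93683. The 13 sites of 1 list had ranks of 40250 to 97811 and widths of 220 to 1483 bp. The longest stretch without a peak in any of the 12 lists ran for 11715 bp, from -24.3 to -12.6 kb. Each list had 9 to 21 peaks in the window.

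**Figure D1:**
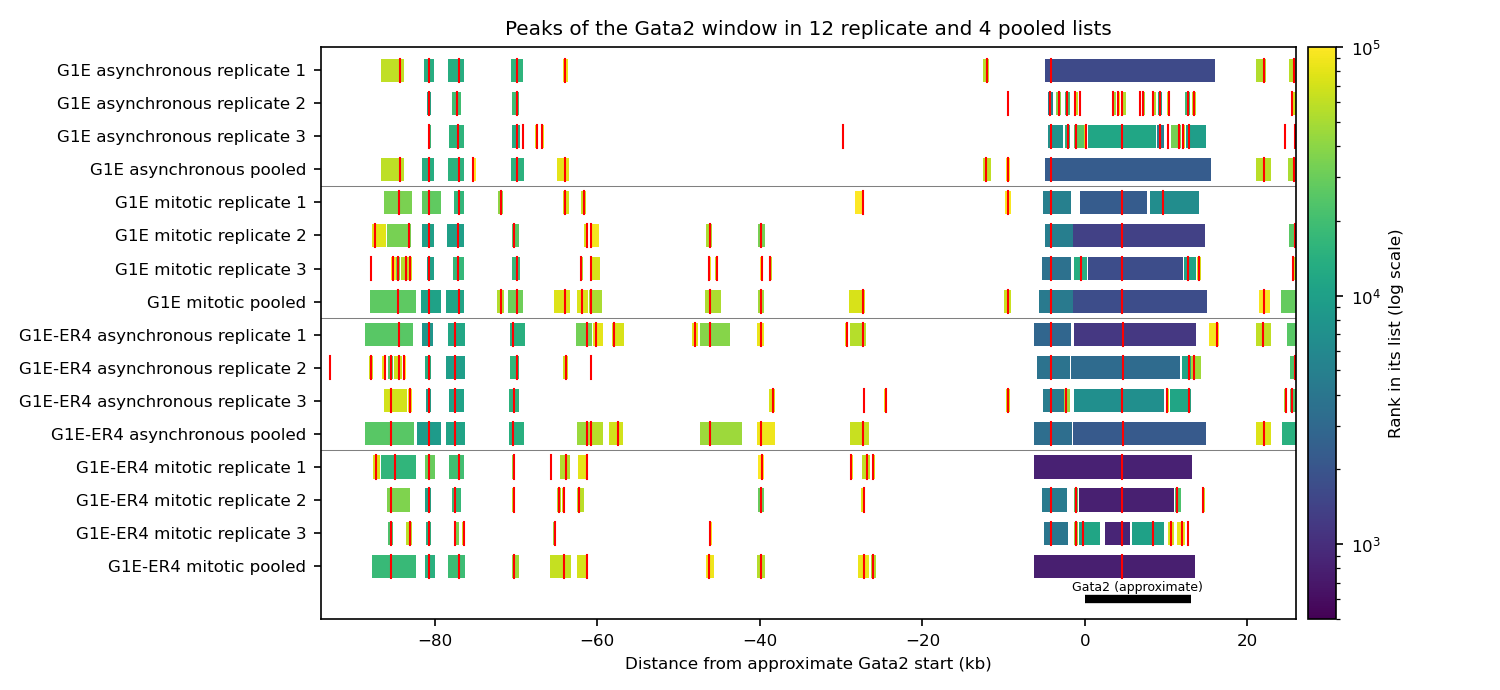
Peaks of the window in the 12 replicate lists and the 4 pooled lists, 1 row per list. Bars are peaks coloured by rank in their list on a log scale, red ticks are summits and the black bar is Gata2. All 12 lists have peaks near -80.7 and -77.2 kb and over the gene, while the middle of the window holds scattered weak ones.

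The site at -80.7 kb had the most constant summit position of the upstream cluster. It spans 88062407 to 88064775, and its summit lay between 88063291 and 88063324 in all 12 lists, a range of 33 bp. Over the 16323 regions held by all 12 lists the median range of summits was 291 bp, and 93.4% of them had a larger range than this site. Its rank in asynchronous G1E was 13454, 11058 and 17117 in replicates 1, 2 and 3. In mitotic G1E it was 27577, 10008 and 9905. In asynchronous G1E-ER4 the ranks were 8028, 13612 and 9457, and in mitotic G1E-ER4 29200, 10896 and 14027. The 4 groups overlapped. The lowest place in each mitotic group was that of replicate 1. Neither line (exact permutation p = 0.765, adjusted 0.930) nor stage (exact permutation p = 0.33, adjusted 0.554) gave a difference beyond the spread between libraries.

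All p-values for ranks come from exact permutation tests, two-sided, on log10 rank, with labels exchanged within the other factor. For the interaction of line and stage, here and below, line labels were exchanged within each stage. This assumes no line difference at either stage, so it is not an exact test of equal line differences. They were adjusted by the Benjamini-Hochberg method over the 103666 regions. The smallest p that these 12 lists allow is 0.005, and within 1 stage or line, with 3 lists against 3, it would be 0.1. None of the 12 sites was called at an adjusted p of 0.05 for line, stage or their interaction, and the share called in the whole series was 0% for each. Even regions at the smallest p of 0.005 did not pass, so no order of the lists at a site could have been called. The 0 calls therefore do not show that the groups were alike. At an unadjusted p of 0.05 or less, 1 of the 12 sites differed by line, against 16.6% of all regions. It was stronger in G1E-ER4, as 9.09% of all regions were, and none was weaker there, as 7.48% were. By stage 3 of the 12 differed, against 25.6% of all regions, with 2 stronger in mitosis (10.5% of all regions) and 1 weaker (15.1%). The line effect differed between stages in 2 of 12 at that level, against 4.64% of all regions. Both had the line difference in log10 rank higher in mitosis (3.58% of all regions) and none had it lower (1.06%). The counts by line and stage are thus near or below the background of the series.

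The site at -77.2 kb, from 88065326 to 88067735, was also in all 12 lists. In asynchronous G1E its ranks were 13458, 19608 and 15318, and in mitotic G1E 16237, 9701 and 17177, which overlap. In asynchronous G1E-ER4 they were 11789, 9522 and 10638, and in mitotic G1E-ER4 20256, 17410 and 33136. Every asynchronous G1E-ER4 list thus had the site stronger than every mitotic one, a pattern found for 13.1% of all regions. The asynchronous G1E-ER4 lists also had it stronger than the asynchronous G1E lists, as for 14.6% of all regions. In mitosis the order was the opposite, with all 3 G1E lists stronger, as for 5.18% of all regions. The line effect on log10 rank was 0.39 higher in mitosis than in asynchronous cells, with the smallest exact permutation p of 0.005. After adjustment it did not pass (exact permutation, adjusted p = 0.617).

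The summit of the site at -77.2 kb stood at 2 places, with asynchronous G1E-ER4 apart from G1E and mitotic G1E-ER4 at both. In asynchronous G1E it was at 88066982, 88066782 and 88066857 in replicates 1, 2 and 3. In mitotic G1E it was at 88066974, 88066914 and 88066920. In asynchronous G1E-ER4 it was at 88066515, 88066460 and 88066484, upstream of every G1E list. In mitotic G1E-ER4 it was at 88066957, 88066477 and 88066518, so replicate 1 stood with the G1E lists and the other 2 with asynchronous G1E-ER4. The authors' pooled list of mitotic G1E-ER4 had it at 88066933, within the G1E range, and that of asynchronous G1E-ER4 at 88066490. The mean position in G1E-ER4 minus that in G1E was -336 bp. Tested over all 16323 regions of all 12 lists, a comparison chosen after seeing the data, the shift had an exact permutation p = 0.015 and an adjusted p = 0.238, which did not pass. The adjusted test called 1.08% of those regions by line and 1.38% by stage, and this site for neither. At an unadjusted p of 0.05 or less 13.7% of them differed by line. Asynchronous summits of the 2 lines did not overlap in 18.4% of them. The range of summits here, 522 bp, was exceeded in 42.6% of those regions.

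The site at -70.1 kb, from 88073127 to 88075050, was at rank 18712 or better in all 6 asynchronous lists and was weaker than those or absent in 5 of the 6 mitotic ones. Its ranks were 15570, 18712 and 12777 in asynchronous G1E and 14054, 16225 and 15039 in asynchronous G1E-ER4. In mitotic G1E it was absent from replicate 1 and had ranks of 25002 and 16938 in replicates 2 and 3, of which the last lies within the asynchronous range. In mitotic G1E-ER4 it had ranks of 43957 and 58609 in replicates 1 and 2 and was absent from replicate 3, all weaker than every asynchronous list. In 13.1% of all regions the mitotic G1E-ER4 lists were all weaker than the asynchronous G1E-ER4 lists. With absent lists set to rank 100001, the geometric mean rank was 15498 in asynchronous and 34856 in mitotic G1E. In G1E-ER4 it was 15080 in asynchronous and 63631 in mitotic cells. Log10 rank was 0.49 higher in mitosis (exact permutation p = 0.01, adjusted 0.0953), which did not pass the adjustment. The authors' pooled lists had it at ranks 14793 and 31237 in asynchronous and mitotic G1E. For G1E-ER4 the pooled ranks were 14216 and 45989. Of all tested regions, 311 (0.300%) were present in the same lists as this one.

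This site, too, had 2 summit positions. In asynchronous G1E the summit was at 88074134, 88074140 and 88074124. In asynchronous G1E-ER4 it was at 88073689 and 88073691 in replicates 1 and 3 and at 88074130 in replicate 2. In mitotic cells it was at 88073753 and 88074163 in G1E replicates 2 and 3, and at 88073691 and 88073694 in G1E-ER4 replicates 1 and 2. No G1E asynchronous list had the upstream position and no mitotic G1E-ER4 list the downstream one. As 2 lists lack the site, the positions are a description without a test. Mitotic G1E-ER4 had the site in 2 lists only, and the share of all regions with such a pattern was not counted. The range of summits here was 474 bp, against a median of 291 bp over the regions held by all 12 lists.

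**Figure D2:**
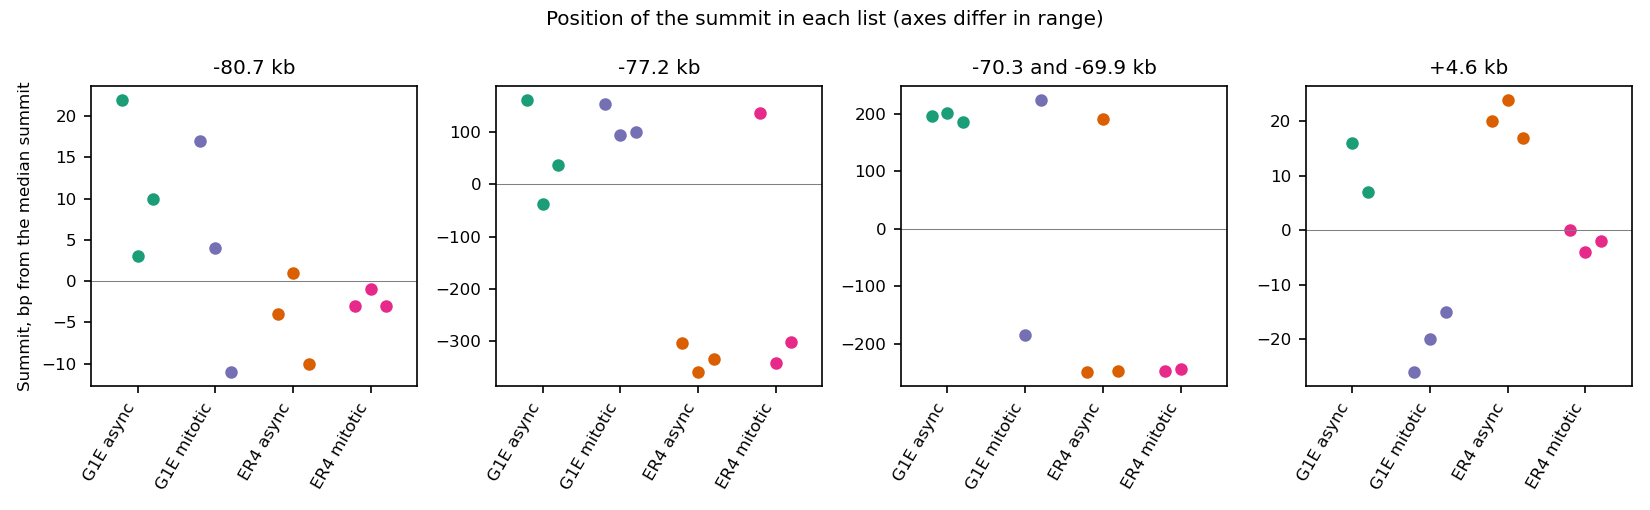
Summit of 4 sites in each list, in bp from the median summit of the site, by group (async, asynchronous; ER4, G1E-ER4). The panels differ in range: summits lie within 33 bp at -80.7 kb and 50 bp at +4.6 kb, while those near -77.2 and -70.1 kb stand at 2 places.

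The site at -84.7 kb, a region of 6265 bp from 88055378 to 88061642, was weakest in asynchronous G1E. There it had a peak in replicate 1 only, at rank 59655. In mitotic G1E its ranks were 34215, 33424 and 32992. In asynchronous G1E-ER4 they were 25310, 24740 and 69437, and in mitotic G1E-ER4 15999, 35622 and 22215. All 3 mitotic G1E lists were stronger than all asynchronous G1E lists, as in 13.7% of all regions. By line log10 rank was 0.27 lower in G1E-ER4 (exact permutation p = 0.04, adjusted 0.302) and by stage 0.29 lower in mitosis (exact permutation p = 0.02, adjusted 0.120). Neither passed. The region held 22 peaks in 10 lists, with summits of the best peaks spread over 2181 bp.

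The other upstream sites were weak and seen in part of the lists. The site at -61.3 kb, from 88081429 to 88084695, was in all 3 mitotic G1E lists, at ranks 65432, 73233 and 52773, and in no asynchronous G1E list. It was the single one of the 12 sites held by all lists of a group and none of another in the 4 comparisons of lines and stages, and 23.8% of all regions had such a pattern in at least 1 of them. For mitotic G1E against asynchronous G1E the share was 5.60%, and for the opposite direction, with 0 of the 12 sites, 7.60%. None of the 12 sites separated the asynchronous lines in this way, as 5.02% of all regions did with peaks in G1E-ER4 and 5.50% with peaks in G1E. None separated the mitotic lines, where the shares were 1.37% and 1.49%. None separated the stages of G1E-ER4, where 1.08% of all regions were held in mitosis and 4.84% in asynchronous cells. These counts are of whole merged regions. By peaks overlapping the window alone, the region at its downstream edge was in all 3 asynchronous G1E-ER4 lists and in no mitotic G1E-ER4 list. The border of the window cuts this region, and no share of all regions was counted by this measure. In G1E-ER4 the site at -61.3 kb had ranks of 32643 and 90745 in asynchronous replicates 1 and 2, and of 80252 and 57648 in mitotic replicates 1 and 2. The sites at -46.1, -39.8 and -27.2 kb, from 88096679 to 88100372, from 88103669 to 88104604 and from 88115082 to 88117503, were likewise in no asynchronous G1E list. They were held by 2, 2 and 1 mitotic G1E lists, 1, 1 and 2 asynchronous G1E-ER4 lists and 1, 2 and 2 mitotic G1E-ER4 lists. Their best ranks were 38371, 28916 and 55421. The asynchronous G1E lists covered 71.9 Mb of the genome on average. Those of mitotic G1E covered 108.8 Mb, of asynchronous G1E-ER4 117.9 Mb and of mitotic G1E-ER4 100.0 Mb. Whether the absences from asynchronous G1E go with this breadth was not tested. The share of all regions absent from that group was not counted. The site at -64.0 kb, from 88079073 to 88080647, had 1 list in each group but mitotic G1E-ER4, which had 2, and its best rank was 52778. The site at -38.5 kb, from 88105083 to 88105806, was in 2 lists, the better at rank 59783. The site at -9.4 kb, from 88134224 to 88134890, was in 1 list of each group but mitotic G1E-ER4, which had none.

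**Figure D3:**
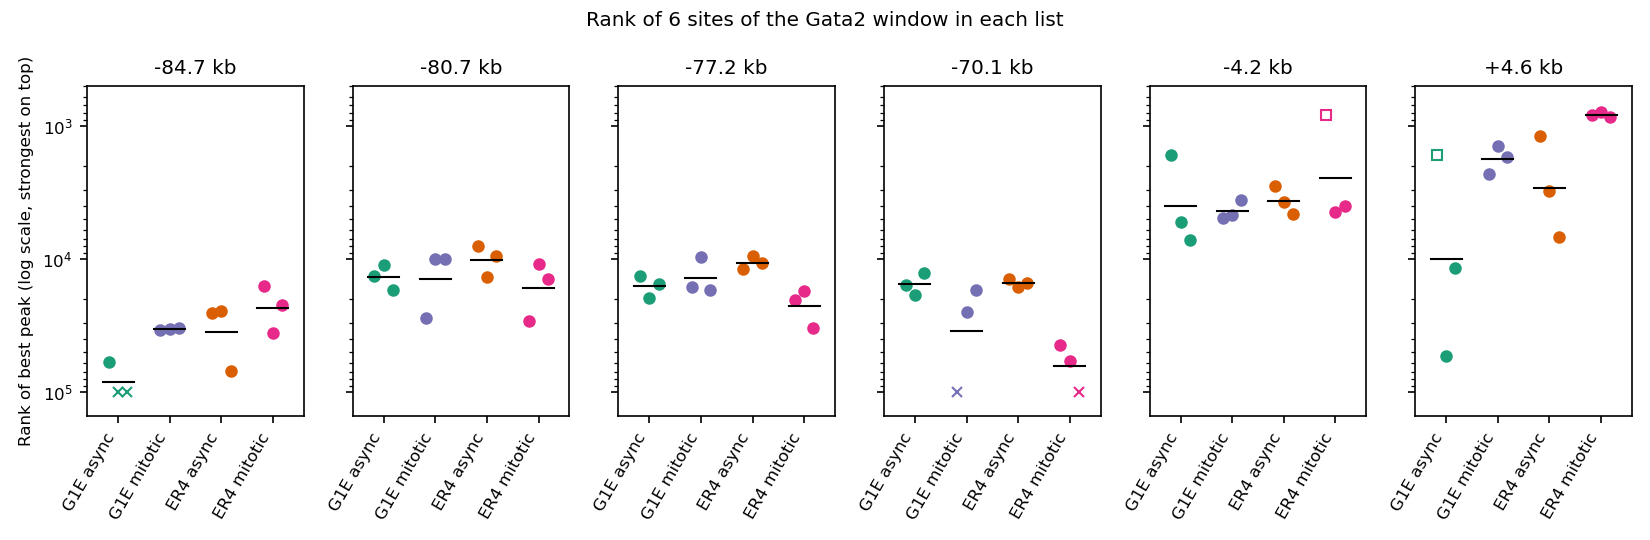
Rank of 6 sites in each list by group, on a log scale with the strongest on top (async, asynchronous; ER4, G1E-ER4). Filled points are peaks, crosses lists without the site, open squares wide peaks that cover the site with their summit elsewhere, and lines geometric means. At -70.1 kb mitotic G1E replicate 3, at 16938, lies among the asynchronous lists and the other 5 mitotic lists lie below them, and the +4.6 kb site is at 789 to 861 in mitotic G1E-ER4.

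The gene lay in 1 domain of 22729 bp, from 88137736 to 88160464, which holds the strongest peaks of the window in every list. Among all tested regions 0.142% were wider. The lists divided it differently. It was a single peak of 20845 bp in replicate 1 of asynchronous G1E and one of 19500 bp in replicate 1 of mitotic G1E-ER4, and it was in 15 pieces in replicate 2 of asynchronous G1E. A wide peak has 1 summit, so a list can cover an inner site without a summit there. The best rank in the domain was 1641, 5274 and 4664 in asynchronous G1E and 2278, 1406 and 1712 in mitotic G1E. It was 1180, 3097 and 4599 in asynchronous G1E-ER4 and 820, 789 and 861 in mitotic G1E-ER4. In every mitotic list this best peak was the one with its summit at +4.6 kb, whose ranks are given again below. In asynchronous G1E and in replicate 3 of asynchronous G1E-ER4 the best peak had its summit elsewhere, so the ranks compare different places. All 3 mitotic G1E-ER4 lists were stronger than the 3 asynchronous ones, as in 6.14% of all regions, and than the 3 mitotic G1E lists, as in 5.29%. Log10 rank was 0.39 lower in mitosis (exact permutation p = 0.02, adjusted 0.120) and 0.23 lower in G1E-ER4 (exact permutation p = 0.1, adjusted 0.350). Neither passed. The line difference was -0.31 (exact permutation p = 0.01) without replicate 1 of asynchronous G1E and -0.14 (exact permutation p = 0.275) without replicate 1 of asynchronous G1E-ER4.

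**Figure D4:**
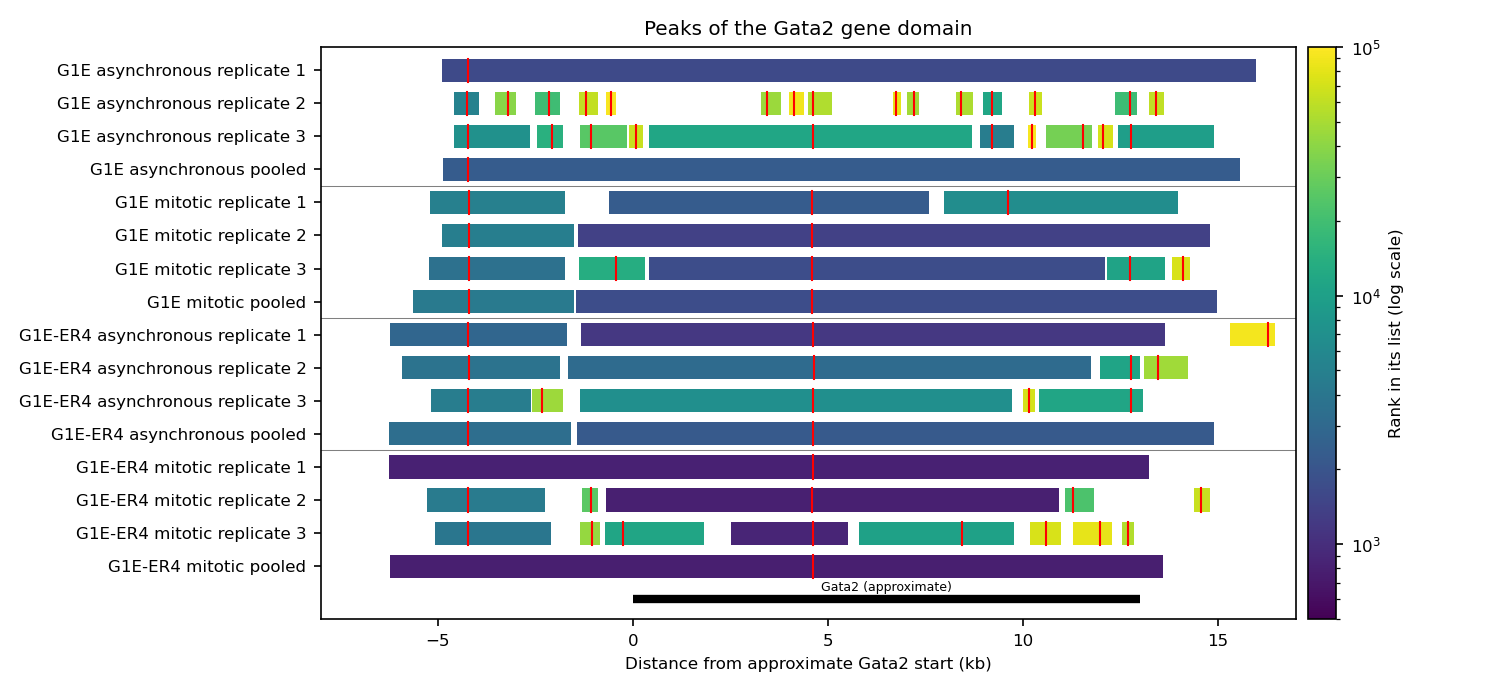
Peaks over Gata2 in the 12 replicate and 4 pooled lists, with bars coloured by rank on a log scale and red ticks at summits. Summits recur near -4.2 and +4.6 kb in 11 replicate lists each. The domain is 1 peak in replicate 1 of asynchronous G1E and 15 pieces in replicate 2.

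Within the domain, summits recurred in 11 of the 12 lists at 2 places. The first was just upstream of the gene, at -4.2 kb, where 11 of the 12 lists had a summit between 88139754 and 88139801. The remaining list, replicate 1 of mitotic G1E-ER4, covered it with its single wide peak. Ranks at this place were 1641, 5274 and 7163 in asynchronous G1E and 4941, 4688 and 3570 in mitotic G1E. In asynchronous G1E-ER4 they were 2834, 3748 and 4599, and in replicates 2 and 3 of mitotic G1E-ER4 4435 and 4001. The groups overlapped, and the summit was the strongest of the domain in replicates 1 and 2 of asynchronous G1E and in replicate 3 of asynchronous G1E-ER4. With the rank of the covering peak used where there was no summit, neither line (exact permutation p = 0.41) nor stage (exact permutation p = 0.635) gave a difference beyond the spread.

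The second recurrent summit was inside the gene at +4.6 kb, between 88148578 and 88148628 in 11 lists. The 2 starts of the gene lie 4773 bp apart. Whether this summit is at the downstream start was not determined, as positions were not converted between builds. In asynchronous G1E it had ranks of 53051 and 11569 in replicates 2 and 3, and in replicate 1 it was covered by the wide peak of rank 1641. In mitotic G1E its ranks were 2278, 1406 and 1712. In asynchronous G1E-ER4 they were 1180, 3097 and 6827, and in mitotic G1E-ER4 820, 789 and 861. Mitotic lists were stronger than asynchronous ones of the line in G1E-ER4 without overlap, as at 4.54% of the 300-bp windows around summits described next. In G1E that holds against replicates 2 and 3, while the covering peak of replicate 1 lies within the mitotic range.

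How the covered list is counted changes the test at +4.6 kb. Among windows of 300 bp around summits, where that list counts as absent, both line and stage had the smallest exact permutation p of 0.005. Adjusted over 146433 such sites the values were 0.245 for line and 0.111 for stage, so neither passed. The share of those sites called after adjustment was 0% for both. Unadjusted, 10.8% of them differed by line and 17.5% by stage. Their interaction did not pass either (exact permutation p = 0.235, adjusted 0.921), and 3.34% of those sites had an unadjusted p of 0.05 or less for it. With the rank of the covering peak the exact permutation p was 0.095 for line and 0.02 for stage. The geometric mean rank was then 10024 in asynchronous and 1763 in mitotic G1E, and 2922 and 823 in G1E-ER4.

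The exact place of the +4.6 kb summit differed by group within its 50 bp. It was at 88148620 and 88148611 in asynchronous G1E and at 88148578, 88148584 and 88148589 in mitotic G1E. It was at 88148624, 88148628 and 88148621 in asynchronous G1E-ER4 and at 88148604, 88148600 and 88148602 in mitotic G1E-ER4. All 6 mitotic summits were thus upstream of the 5 asynchronous ones. Mitotic and asynchronous summits did not overlap in 2.86% of the 14589 sites of 300 bp with at least 11 lists. The 4 groups did not overlap each other at +4.6 kb, as at 0.123% of those sites, 18 in number. These positions were compared after seeing the data and were not tested.

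Further inner summits were seen in fewer lists, many of them lists with narrow peaks, and only some are given here. At +9.2 kb, replicates 2 and 3 of asynchronous G1E had summits 1 bp apart, at 88153206 and 88153207, with ranks of 11500 and 4664, the latter the strongest of its domain. The other 10 lists covered the place with peaks whose summits lay elsewhere. At +12.7 kb, 6 lists had a summit between 88156699 and 88156773. Its ranks were 18992 and 9627 in replicates 2 and 3 of asynchronous G1E, 10799 in replicate 3 of mitotic G1E and 11122 and 11353 in replicates 2 and 3 of asynchronous G1E-ER4. It was weakest in replicate 3 of mitotic G1E-ER4, at rank 54124, and replicate 2 of that group did not cover it. Upstream of the gene, at -2.1 kb, summits were in replicates 2 and 3 of asynchronous G1E, at ranks 19340 and 14299, and in replicate 3 of asynchronous G1E-ER4 at rank 46077. At -1.1 kb they were in replicates 2 and 3 of asynchronous G1E, at ranks 61519 and 25325, and in replicates 2 and 3 of mitotic G1E-ER4, at ranks 26046 and 43317. A weaker summit place at +10.3 kb was seen in 4 lists at ranks of 66062 to 93687. Mitotic lists had further summits of better rank. Replicate 1 of mitotic G1E had one at +9.62 kb at rank 6580, and replicate 3 one at -0.44 kb at rank 13369. Replicate 3 of mitotic G1E-ER4 had one at +8.44 kb at rank 10298 and one at -0.26 kb at rank 11214.

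The covered length of the window moved with the breadth of a list's peaks. Peaks covered 21515 ± 10899 bp of it in asynchronous G1E and 30034 ± 2561 bp in mitotic G1E (SD, n = 3 each). In G1E-ER4 they covered 34428 ± 10841 bp in asynchronous and 25554 ± 7228 bp in mitotic cells (SD, n = 3 each). The lowest value, 10034 bp, was in replicate 2 of asynchronous G1E, and the highest, 46932 bp, in replicate 1 of asynchronous G1E-ER4, which are also the lists covering least and most of the genome. The mean difference between lines was 4217 bp (exact permutation test, two-sided, p = 0.465) and between stages -178 bp (exact permutation p = 0.995), both within the spread. The line difference in mitosis minus that in asynchronous cells was -17393 bp, with an exact permutation p = 0.095. Per Mb covered by the list, the line difference was -7.30 bp (exact permutation p = 0.815) and the stage difference -27.7 bp (exact permutation p = 0.395). The line difference in mitosis minus that in asynchronous cells was then -23.0 bp (exact permutation p = 0.75). The number of peaks in the window was 16.3 ± 6.43 in asynchronous and 14.3 ± 4.93 in mitotic G1E, and 16.3 ± 0.577 and 14.0 ± 1.00 in G1E-ER4 (SD, n = 3 each). It did not differ beyond the spread by line (exact permutation p = 1) or stage (exact permutation p = 0.365). In each replicate list the window held more peak starts than 81.8% to 95.3% of the tiles of the same length over the genome.

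**Figure D5:**
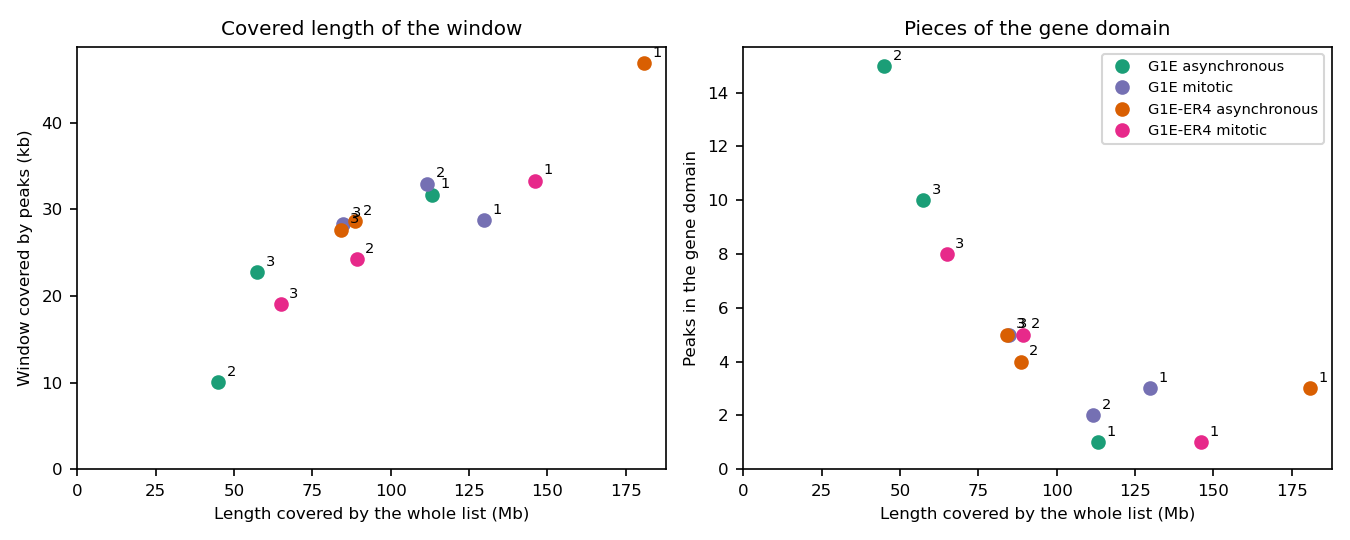
Left, length of the window covered by peaks, and right, number of peaks in the gene domain, each against the length covered by the whole list, 1 numbered point per library. The list covering 45.0 Mb has 10034 bp of the window covered and the gene domain in 15 pieces, and the 2 lists with the domain as 1 peak cover 113.2 and 146.0 Mb.

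At the downstream edge of the window the peaks belonged to a region of 20619 bp that runs to 88189093, beyond the window. All 12 lists held this merged region, and its strongest peaks lay outside the window, around +41.4 kb. Its best peaks overlapping the window had ranks of 57835, 61873 and 48195 in asynchronous G1E and 25182, 22766 and 22727 in asynchronous G1E-ER4. Replicates 2 and 3 of mitotic G1E had them at 25825 and 65683. Replicate 1 of mitotic G1E and all 3 mitotic G1E-ER4 lists had no peak of it in the window. The ranks that follow are those of the whole region, taken from peaks beyond the window. Its ranks in asynchronous G1E were 32965, 29148 and 27571, weaker than in all 9 other lists. In mitotic G1E they were 11831, 13601 and 12337. In asynchronous G1E-ER4 they were 13387, 12072 and 16679, and in mitotic G1E-ER4 18347, 14083 and 10911. All mitotic G1E lists were stronger than all asynchronous G1E lists in 13.7% of all regions, and all asynchronous G1E-ER4 lists stronger than those in 14.6%. A last site at +22.0 kb, from 88165080 to 88166904, was in replicate 1 of asynchronous G1E at rank 54105 and in replicate 1 of asynchronous G1E-ER4 at rank 60746. It was in no mitotic replicate list, and the pooled mitotic G1E list had it at rank 94352.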

How the data were processed

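DNase-seq peaks of 12 libraries, 3 in each of 4 groups, were used. Per the submitters' processing notes, reads were handled with Bowtie on mm9. The peak caller, filters and any normalization: not given in the sources used here. For each peak the deposited lists give a position, a summit offset and a signal, the authors' value, which served only to rank peaks within a list. Each list ends at 100000 peaks.

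Peaks of the 19 autosomes and X were merged at 1 bp over the 12 lists. A site took the rank of its best peak in each list, or rank 100001 where it had none. Sites of at least 3 lists were tested by exact permutation with 400 arrangements and Benjamini-Hochberg adjustment over the series, called at 0.05. Pooled lists gave values only. The 12 replicate files were all distinct.

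The window, the lists of sites and the tests were chosen with earlier results of these data known. Sites of at least 2 of 3 lists of a group are named, and ranks are given per list for the 8 of best median rank and those with an all-against-none pattern. The median was a held rank at 7 sites, so the eighth place was a tie of all others, and these are given by ranges. Chosen after seeing the data were the summit comparisons, the inner sites of the gene domain, covered length per Mb of a list and the CCAAT search. Alternatives left out each list, or used the 50000 highest peaks, 300 bp around summits, sites of at least 6 lists, presence in place of rank, the pooled lists, the window without the gene part and a replicate block. Calculations used Python 3.11.15, numpy 2.4.6, pandas 2.3.3 and matplotlib 3.10.9. The permutation test was tested on simulated data. Depth and counting error could not be stated, as peak lists give no read counts.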

Additional observations from a re-analysis of the deposited data

Results flagged for a closer look

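At 2 sites the line effect on log10 rank differed between mitotic and asynchronous cells at an unadjusted p of 0.05 or less, and neither passed the adjustment over all regions. At -77.2 kb the difference was 0.39 (exact permutation p = 0.005, adjusted 0.617). At the region around +41.4 kb, whose strongest peaks lie beyond the window, it was 0.38 (exact permutation p = 0.03, adjusted 0.617), with geometric mean ranks of 29811 in asynchronous and 12568 in mitotic G1E and of 13917 and 14127 in G1E-ER4. Among all tested regions 4.64% had such an unadjusted p. Groups of 3 lists are too small for a check of single outlying lists.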

How the results depend on the processing

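No site was called for line, stage or their interaction under any alternative run: leaving out each list, the 50000 highest peaks, 300 bp around each summit, sites of at least 6 lists and, for line and stage, presence in place of rank. As in the main tests, the absence of calls does not show that the groups were alike. At an unadjusted p of 0.05 or less, leaving out single lists gave 0 to 2 sites by line, 3 to 5 by stage and 1 to 3 for the interaction. The stage count was 3, and it was 1 with the replicate block, 1 with 300 bp around each summit and 0 with presence in place of rank. The line count of 1 was 0 with the 50000 highest peaks, 2 with 300 bp around each summit and 0 with presence. The interaction count of 2 was 1 with the block and 1 with 300 bp. The count of sites with an all-against-none pattern, taken over whole merged regions, was 1. It was 1 to 3 on leaving out single lists. It was 2 without replicate 1 of asynchronous G1E or replicate 2 of asynchronous G1E-ER4, and 3 without replicate 1 of mitotic G1E. There the 2 lists left in the shortened group were enough to count as all. With 300 bp around each summit the count was 0, and the cause was not tested. In the authors' pooled lists 6 sites differed, where presence in 1 list of a comparison and absence from the other was enough. The counts from left-out and pooled lists thus used a looser rule than the main count. The coverage difference by line was 1091 to 6768 bp on leaving out single lists, -54.3 bp with 300 bp around each summit and -7.30 bp per Mb of the list. By stage it was -3049 to 2948 bp on leaving out single lists and 595 bp with the 50000 highest peaks. The difference in peak number by line was -2 to 1.25 on leaving out single lists, 0.167 with the 50000 highest peaks and 2.17 in the window outside the gene part. On leaving out single lists the line difference in log10 rank was -0.092 to 0.044 at -80.7 kb and -0.023 to 0.046 at -77.2 kb. At -77.2 kb the interaction kept an unadjusted exact permutation p of 0.005 to 0.02 there.

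With the replicate block, in which labels are exchanged only within a replicate number and the smallest p is 0.0312, no adjusted p could fall under 0.417 by line, 0.232 by stage or 0.792 for the interaction, so its 0 calls say nothing. Unadjusted exact permutation p-values went from 0.04 to 0.0625 at -84.7 kb by line and from 0.02 to 0.0625 there by stage. For the gene domain they went from 0.02 to 0.0625 by stage and from 0.1 to 0.0312 by line. The coverage difference by line had an exact permutation p of 0.375. Deviations of lists with the same number correlated at -0.028 to 0.25, above 0.1 in 7 of 12 pairs, and the best partner had the same number in 8 of 12. The main tests did not pair the samples by number, since not every pair was above 0.1. They thus do not account for what lists of the same number share. The replicate 1 lists correlated at 0.19 to 0.25 and were each other's best partner in all 4 comparisons. The stricter overlap of 0.5 of a peak's length was not run, since every peak lies wholly inside its merged region. The rank limit of 100000 peaks and the unknown depth limit every statement on absence.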
